A study of Mus musculus with 28 samples.

Results

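Cholesterol is built from acetyl-CoA in a long chain of enzymes. The mevalonate steps make the isoprenoid units, squalene is then formed and closed into a ring, and the sterol steps trim that ring to cholesterol. The transcription factors Srebf1 and Srebf2 switch these genes on when membrane sterol is low; Scap escorts them out of the endoplasmic reticulum and Insig1 and Insig2 hold them there. Surplus cholesterol is esterified by Soat1 or exported by Abca1 and Abcg1, which liver X receptors induce. In the testis, Leydig cells use cholesterol for androgen synthesis, and Sertoli cells, the somatic cells that nurse the germ cells, take up spent germ cell material and handle its lipid.

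The genes described are 31 of the 43280 rows of the deposited tables: 8 mevalonate steps, 11 sterol steps, 5 regulators, 4 genes of uptake and transport inside the cell, and 3 of esterification and export. They were chosen by symbol for their role, with earlier results of these data known, and all 31 were found. Messenger RNA was sequenced in 28 mouse libraries. In 10 of them, cells were sorted for a red fluorescent protein switched on by Amh-Cre, a driver active in Sertoli cells; these RFPxAMH-Cre mice were RFP heterozygous and Cre-positive, with a background derived from C57BL/6 and 129s4/SvJae, while the label of group A replicate 1 gives C57BL/6 and Amh-Cre. The 10 form 5 groups of 2, named by the stages of the seminiferous cycle most enriched in them: stages I-III are group B, stages IV-VI group C, stages VII-VIII group D, stages IX-X group E and stages XI-XII group A. The other 18 are whole testis libraries from NANOS2 KO animals with a CD1 background, a model that loses its germ cells, with 2 for each day from 42 to 50. All animals, controls and knockouts alike, had received WIN 18,446, a blocker of retinoic acid synthesis, for 7 days and then 1 injection of retinoic acid, and were taken 42 to 50 days after it. The labels give neither the animals' age nor whether tissue was pooled. Nothing states that replicates came from separate animals, so p-values measure the spread between these libraries, which may be technical.

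Total counts ran from 1901743 to 5279746 in sorted and from 1336742 to 4370138 in knockout libraries, so 3 counts equal 0.568 to 1.58 and 0.686 to 2.24 CPM (counts of a gene per 1000000 counts of the library). The Sertoli markers Sox9 and Cldn11 were read in all 28 libraries. The sum of 14 Sertoli markers was 9249 to 14445 CPM in sorted libraries and higher, 15881 to 18794 CPM, in the knockout. Transcripts of 7 elongating spermatid markers summed to 1572 to 14031 CPM in sorted libraries and 0 to 2.97 CPM in the knockout, and those of spermatocytes to 159 to 670 and 0 to 2.55 CPM. Spermatogonia markers overlapped, at 173 to 478 CPM in sorted and 193 to 296 CPM in knockout libraries, and 1 of them, Zbtb16, had medians of 6.40 and 20.4 CPM. For Leydig cells, 9 markers summed to 69.3 to 458 CPM in sorted libraries and 2881 to 7997 CPM in the knockout; Insl3 was at 0 in all 10 sorted libraries. Macrophage markers summed to 148 to 404 CPM and 665 to 993 CPM, peritubular myoid markers to 82.6 to 344 and 564 to 789 CPM, and endothelial markers to 12.2 to 42.1 and 87.5 to 180 CPM. The mitochondrial share of counts was 4.61% to 12.5% in sorted and 0.715% to 3.24% in knockout libraries.

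Promoters of 4 genes are shown: Sc5d and Abca1, which differed widely between the sets, Hmgcs1, the most abundant member per length in the knockout, and Ebp, the most abundant in sorted cells. Each is the 150 bases before the RefSeq transcription start (GRCm38.p6), read along the gene. Of the members with a promoter in that table, these were taken from those whose stretch meets no annotated exon. Among the sterol steps only Sc5d and Ebp were of this kind, and Hmgcs1 and Abca1 were chosen by name. The RefSeq start matched the start of a GENCODE transcript for Ebp and Abca1, and for 21 of the 24 members with a window. It did not for Sc5d and Hmgcs1, so their positions hold for the RefSeq start alone. Capitals mark CCAAT, a box bound by NF-Y that often stands beside sterol elements (ATTGG when it lies on the opposite strand), and TCACCCCAC, a match to the sterol element core TCACNCCAC.
Hmgcs1, chr13:119690201-119690350, plus strand: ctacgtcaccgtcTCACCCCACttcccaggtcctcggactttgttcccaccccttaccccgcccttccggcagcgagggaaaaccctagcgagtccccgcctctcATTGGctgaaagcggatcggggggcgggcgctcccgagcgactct
Sc5d, chr9:42264301-42264450, minus strand: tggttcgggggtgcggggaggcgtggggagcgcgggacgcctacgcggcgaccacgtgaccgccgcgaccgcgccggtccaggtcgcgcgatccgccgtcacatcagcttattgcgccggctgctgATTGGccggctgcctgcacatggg
Ebp, chrX:8193513-8193662, minus strand: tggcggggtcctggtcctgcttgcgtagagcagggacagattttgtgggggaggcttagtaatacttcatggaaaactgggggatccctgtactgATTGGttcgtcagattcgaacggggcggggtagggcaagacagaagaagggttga
Abca1, chr4:53159896-53160045, minus strand: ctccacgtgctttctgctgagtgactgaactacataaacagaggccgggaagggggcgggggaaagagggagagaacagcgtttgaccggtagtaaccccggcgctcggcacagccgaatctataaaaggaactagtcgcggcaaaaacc
Hmgcs1 carries the sterol core match at position -137 and an ATTGG at position -45, both counted to the first base from the start. Sc5d and Ebp have an ATTGG at positions -24 and -55, and the Abca1 stretch holds neither string. Over windows of 300 bases (250 before to 50 after the start, both strands), CCAAT was found in 20 of the 24 members with a window, 83.3%, against 38.5% of the 11005 genes with a window that entered the comparison of the sets. The core TCACNCCAC was found in Hmgcs1 alone, 4.17% of the 24, against 1.15% of the same genes. The GC box GGGCGG was found in 83.3% of the members and 61.6% of those genes. These are matches of letters, not measured binding.

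In sorted Sertoli cells the pathway was uneven. Levels between genes were compared as mean CPM per kilobase of exon. Length was that of all annotated exons of a gene merged, so orders by length depend on the annotation. The highest was Ebp, a sterol isomerase, at 52.1 ± 11.2 CPM per kb (SD, n = 10 libraries). Scarb1, the receptor that takes up cholesterol ester from high-density lipoprotein, followed at 46.4 ± 11.0. Fdft1, which makes squalene, stood at 32.9 ± 8.31 and Npc2, which hands cholesterol out of the lysosome, at 30.0 ± 2.88 CPM per kb, so those neighbours overlapped in spread. At the low end were Abcg1 (0.19), Tm7sf2 (0.65), Idi1 (0.75), Stard4 (0.76) and Sc5d (1.00 CPM per kb). The low set includes enzymes of the same chain as the highest gene: Sc5d acts next after Ebp, and Tm7sf2 acts earlier.

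In the knockout testis the order was different. Hmgcs1 was highest at 90.1 ± 6.91 CPM per kb (SD, n = 18 libraries). This enzyme condenses acetyl-CoA with acetoacetyl-CoA at the head of the mevalonate branch. Abca1 followed at 71.3 ± 10.4, Scarb1 at 59.4 ± 8.11, Soat1 at 51.1 ± 5.25 and Ebp at 50.4 ± 5.16 CPM per kb. Idi1 (3.69) and Npc1 (4.65 CPM per kb) were lowest.

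**Figure D1:**
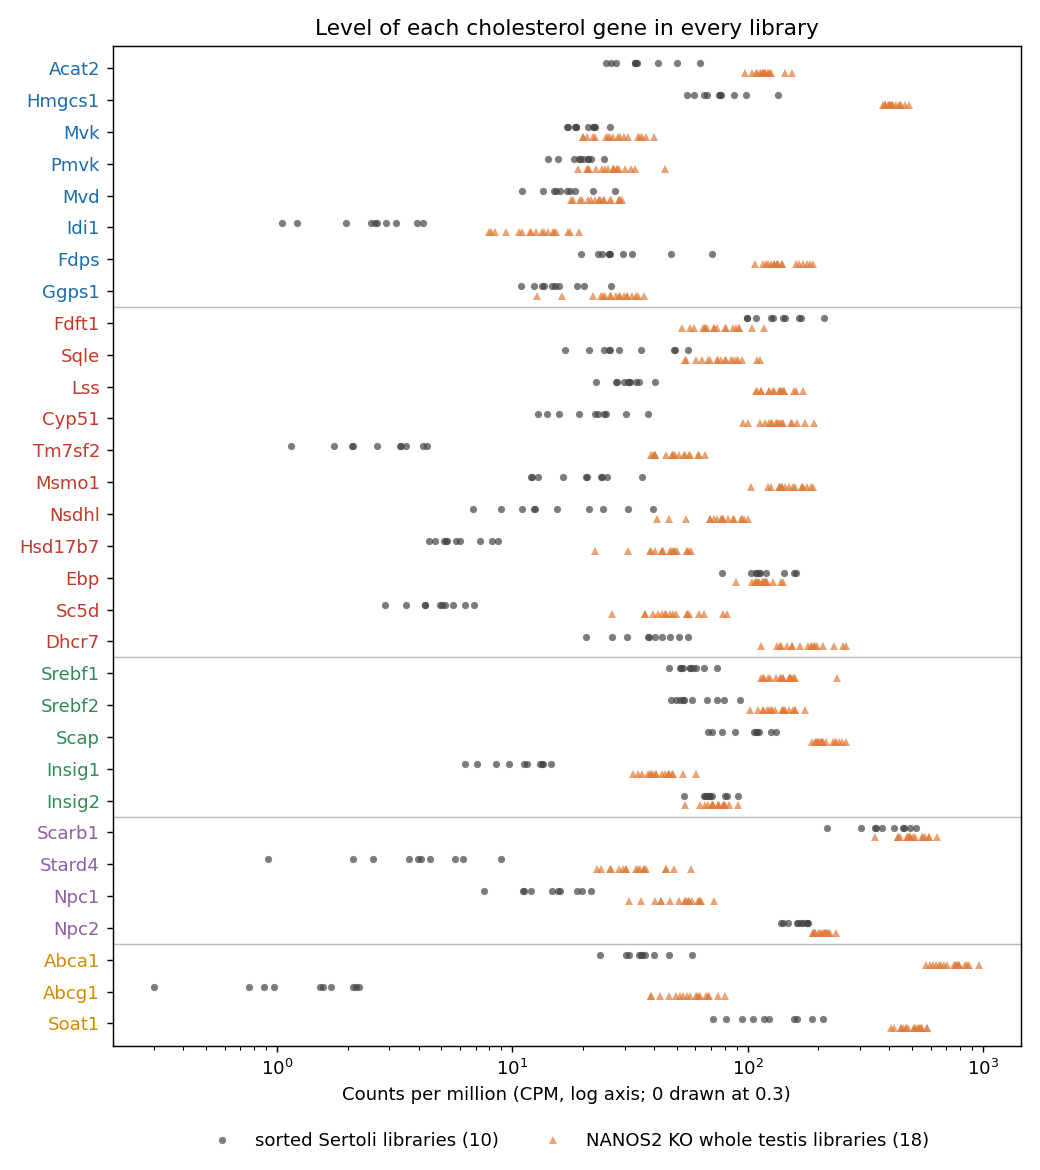
Level of each of the 31 genes in CPM on a log axis, 1 point per library, for 10 sorted Sertoli libraries (circles) and 18 NANOS2 KO whole testis libraries (triangles), ordered by role. For 22 genes every triangle lies to the right of every circle; Fdft1 lies mostly the other way, and Ebp and Insig2 overlap.

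Between the 2 sets, 26 of the 31 genes passed the test (edgeR's quasi-likelihood test on counts, Benjamini-Hochberg adjusted p under 0.05), against 85.1% of all 15777 genes tested, so the share that passed is near that of any gene. Of the 26, 23 were higher in the knockout testis, where 38% of all genes were higher, and 3 were lower, where 47% were lower. The median log2 difference of the 31 was 1.56, and that of all genes -0.17. In deposited CPM, 22 of the 31 were above every sorted library in every knockout library (23.6% of all genes), and 0 were below every sorted library (18.3%). With CPM scaled by edgeR's TMM factors, a choice made after seeing the data, these counts were 19 (17.2% of genes) and 1, Fdft1 (24.6%). Npc2, Nsdhl and Srebf2 were no longer separated on that scale. The knockout libraries are whole testis on another strain and the sorted ones are not, so germ cell loss, other testis cells and strain cannot be told apart, nor can fewer cells of a type from less RNA per cell. The Sertoli, Leydig, macrophage, myoid, endothelial, spermatocyte and elongating spermatid sums given above separated the sets without overlap, as did the mitochondrial share. The Sertoli sum, like those of Leydig, macrophage, myoid and endothelial markers, was higher in the knockout. The part of all these in the differences was not tested.

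Among the mevalonate steps, 5 of 8 were called, where 85.1% of all genes were, and all 5 were higher in the knockout. Hmgcs1 was at 55.5 to 135 CPM in sorted libraries (median 76.0) and at 377 to 484 CPM in the knockout (median 406). The groups did not overlap, and the log2 difference was 2.01 ± 0.11 (SE; edgeR adjusted p = 6.43e-15). Fdps, which joins isoprenoid units to farnesyl diphosphate, ran from 19.7 to 70.6 CPM (median 25.9) against 107 to 189 CPM (median 134), a log2 difference of 1.81 ± 0.13. Acat2, a cytosolic thiolase that supplies acetoacetyl-CoA, ran from 25.0 to 62.7 against 97.5 to 154 CPM, a log2 difference of 1.36 ± 0.09; its near copy Acat3 was at 11.6 to 58.0 and 62.0 to 111 CPM, and how reads were divided between them is not stated. Idi1, the isopentenyl isomerase, ran from 1.05 to 4.17 CPM (2 to 17 counts) against 7.96 to 19.1 CPM, with no overlap (1.87 ± 0.20). Ggps1, which makes geranylgeranyl diphosphate for protein anchoring, differed by 0.37 ± 0.14 with overlapping groups. The enzymes between Hmgcs1 and Idi1, which phosphorylate and decarboxylate mevalonate, had values near 0: Mvk 0.07 ± 0.12, Pmvk 0.07 ± 0.11 and Mvd 0.09 ± 0.10 (log2, SE), none called and all with overlapping groups. Those 3 were called higher, by 0.43 to 0.48 on the log2 scale, with limma on deposited CPM.

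All 11 sterol steps were called, where 85.1% of all genes were. Of these, 9 were higher in the knockout and 2 lower, as were 38% and 47% of all genes. Tm7sf2, a sterol reductase, ran from 1.15 to 4.35 CPM (4 to 19 counts) in sorted libraries and from 38.8 to 65.9 CPM in the knockout. It differed by 3.79 ± 0.13 log2 (SE, edgeR adjusted p = 1.09e-18). Its exons share 532 bases with Vps51 on the same strand, and Vps51 itself stood at 29.2 to 57.5 and 30.5 to 56.3 CPM. Sc5d, the desaturase acting late in the chain, ran from 2.88 to 6.89 against 26.6 to 81.5 CPM (2.98 ± 0.14). Msmo1, a sterol methyl oxidase, ran from 12.0 to 35.7 against 103 to 190 CPM (2.55 ± 0.12). These 3 had no overlap between the sets. Hsd17b7, a keto-steroid reductase (2.50 ± 0.13), Cyp51, the lanosterol demethylase (2.26 ± 0.10), and Dhcr7, the 7-dehydrocholesterol reductase (1.85 ± 0.09 log2, SE), did not overlap either. In deposited CPM the same held for Nsdhl (1.80 ± 0.15) and Lss, which closes the ring (1.73 ± 0.09 log2, SE). With TMM-scaled CPM, Nsdhl overlapped. Sqle, the squalene epoxidase, was at 16.8 to 55.7 against 54.3 to 113 CPM, overlapping by 1 sorted library (0.91 ± 0.12).

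The 2 exceptions were Fdft1 and Ebp. Fdft1 ran from 99.0 to 211 CPM in sorted libraries (median 135) and from 52.4 to 118 CPM in the knockout (median 73.0), a log2 difference of -1.24 ± 0.10 (SE; edgeR adjusted p = 3.26e-11). It was lower in every setting tried, by -0.83 to -1.33. Fdft1 shares 774 bases of exon with Ctsb on the opposite strand, and Ctsb stood at 158 to 348 CPM in sorted and 504 to 898 CPM in knockout libraries. Whether counting used the strand is not stated, so reads of the pair cannot be told apart. Ebp was at 78.0 to 161 against 89.7 to 142 CPM, with overlap and a log2 difference of -0.41 ± 0.08. That call was lost when library totals replaced TMM (-0.03, edgeR adjusted p = 0.725), a choice made after seeing the data.

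Among the regulators, 4 of 5 were called higher in the knockout and 1 lower, where 38% and 47% of all genes were. Insig1 ran from 6.31 to 14.6 CPM in sorted libraries and from 32.5 to 60.4 CPM in the knockout, a log2 difference of 1.56 ± 0.12 (SE; edgeR adjusted p = 1.50e-11). Insig2 ran from 53.8 to 91.4 and from 54.4 to 91.0 CPM, with full overlap and a log2 difference of -0.33 ± 0.08; with library totals the sign turned (0.05, edgeR adjusted p = 0.593). Both encode the retention proteins of the Scap complex. Srebf1 (0.94 ± 0.09), Srebf2 (0.74 ± 0.10) and Scap (0.74 ± 0.09 log2, SE) were higher by smaller amounts than the median sterol step, 1.85. Scap ran from 67.8 to 131 against 187 to 262 CPM, and in deposited CPM none of these 3 overlapped.

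For uptake and transport, 2 of 4 genes were called, both higher, where 85.1% of all genes were called. Scarb1 ran from 217 to 521 CPM in sorted libraries (median 396) and from 349 to 637 CPM in the knockout (median 490). The groups overlapped and the log2 difference was -0.0043 ± 0.08 (SE; edgeR adjusted p = 0.963), but with library totals it was 0.38 and called. Npc2 ran from 138 to 180 against 189 to 238 CPM, without overlap as deposited, yet the TMM-scaled difference was -0.03 ± 0.07 and uncalled; with library totals it was 0.35 and called. Stard4, a carrier of cholesterol between membranes, ran from 0.914 to 8.98 CPM (3 to 47 counts) against 22.9 to 57.7 CPM (2.72 ± 0.20). Npc1, the lysosomal membrane partner of Npc2, ran from 7.62 to 21.6 against 31.3 to 72.0 CPM (1.43 ± 0.13). Both were separated from every sorted library.

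All 3 genes of esterification and export were called higher in the knockout, where 38% of all genes were. Abca1, which loads cholesterol onto apolipoprotein particles, ran from 23.5 to 57.9 CPM in sorted libraries (median 35.4) and from 571 to 964 CPM in the knockout (median 761). The log2 difference was 3.93 ± 0.13 (SE; edgeR adjusted p = 1.74e-19). Abcg1, the partner exporter, was near the floor in sorted cells, with 0 to 9 counts per library, and stood at 38.8 to 80.3 CPM in the knockout; its fitted log2 difference of 5.00 depends on the prior count. Soat1 ran from 71.1 to 208 against 408 to 578 CPM, a log2 difference of 1.61 ± 0.10. The macrophage marker Csf1r was at 0 to 2.24 CPM in sorted and 116 to 197 CPM in knockout libraries, and its part in the export genes was not tested.

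**Figure D2:**
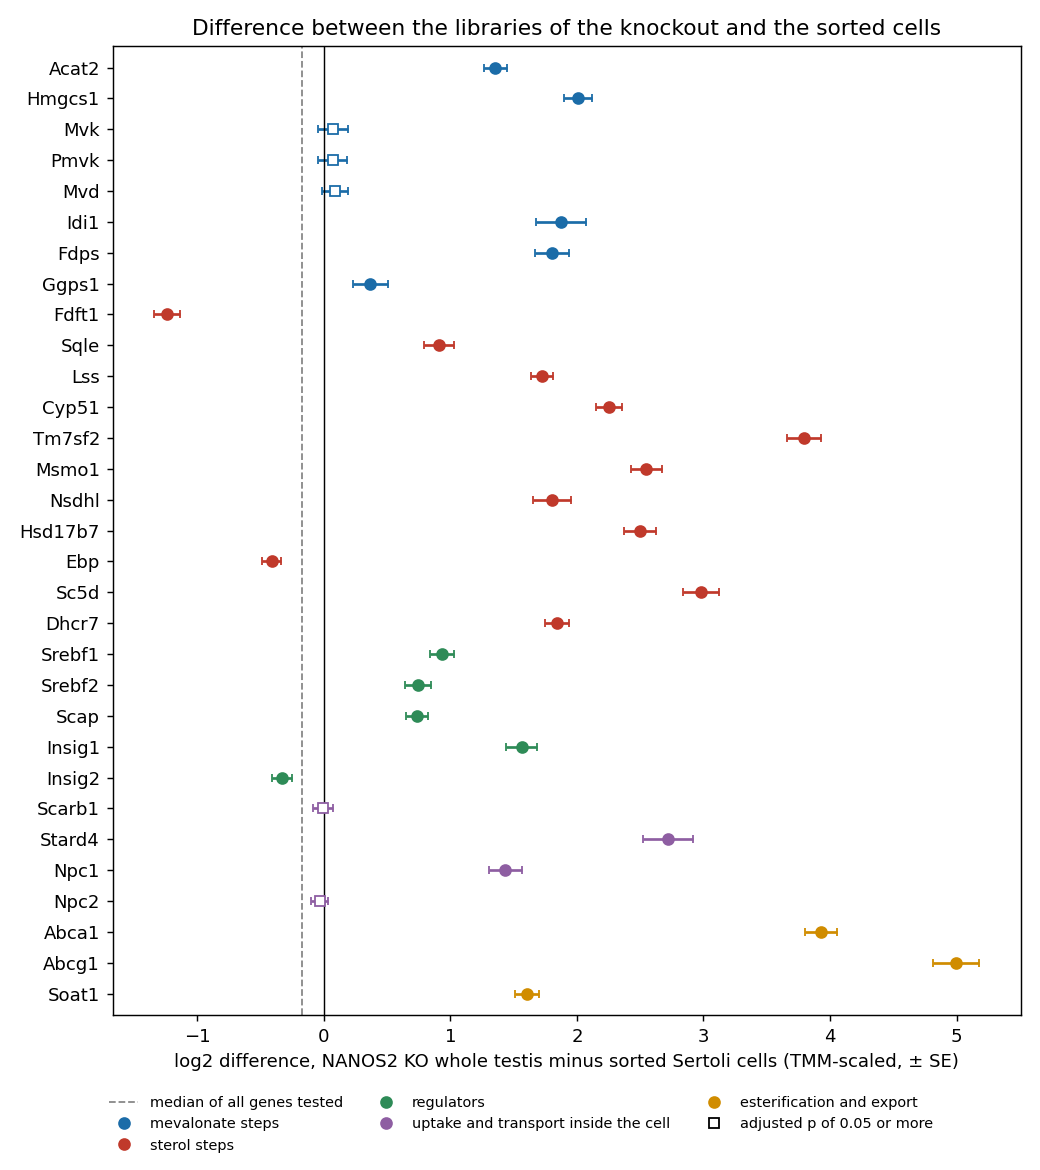
TMM-scaled log2 difference of NANOS2 KO whole testis minus sorted Sertoli cells for the 31 genes, ± SE, coloured by role; filled circles passed an adjusted p of 0.05 and the dashed line is the median of all genes, -0.17. Most sterol steps lie above 1.5, with Fdft1 at -1.24 and Ebp at -0.41, and Abca1 and Abcg1 are farthest right.

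Within the knockout, no member passed the F test over the 9 days (0 of 31, with edgeR; 0.582% of 13065 genes passed). At an unadjusted p under 0.05 there were 13 of 31 members against 11.1% of all genes, among them 9 of the 11 sterol steps. Sqle had the lowest adjusted p, 0.087, followed by Sc5d, Nsdhl and Dhcr7 at 0.0965 and Fdft1 at 0.0974 (edgeR). Most sterol steps had their extremes on a few shared days. Of the 11 sterol steps, 9 had their highest daily mean on day 48, where 9.89% of all genes did, and the lowest was on day 42 for 7 and day 49 for 4 (18.8% and 21.0% of all genes).

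Sc5d was at 36.6 and 36.6 CPM on day 42, at 41.7 to 62.1 CPM in the 10 libraries of days 43 to 47, at 81.5 and 65.1 CPM on day 48, at 26.6 and 39.7 CPM on day 49, and at 78.3 and 46.8 CPM on day 50. Both day 48 libraries exceeded all libraries of days 42 to 47 and 49. Dhcr7 was at 187 and 154 CPM on day 42, 262 and 232 CPM on day 48, 114 and 139 CPM on day 49, and 254 and 197 CPM on day 50; its other libraries lay between 134 and 209 CPM. Day 48 again stood above all days but 50. How many of all genes had a day set apart in this way was not counted. Fdft1 was at 56.9 and 52.4 CPM on day 42, 66.0 to 92.1 CPM on days 43 to 47, 118 and 92.3 CPM on day 48, 64.8 and 59.2 CPM on day 49 and 105 and 73.9 CPM on day 50. Its low and high days were those of Sc5d, although Fdft1 was lower in the knockout than in sorted cells. Sqle was at 54.3 and 54.7 CPM on day 42, the lowest pair, and at 113 and 85.3 CPM on day 48.

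The median of the 11 sterol steps, as log2(CPM + 0.5) against each gene's mean over the 18 libraries, was -0.41 and -0.30 on day 42, 0.41 and 0.28 on day 48, and -0.27 and -0.19 on day 49. On day 50 the libraries differed, 0.37 and -0.0048, more than the pair of any other day. The mevalonate steps had medians of -0.14 and -0.23 on day 42 and of 0.28 and 0.06 on day 48, on the same scale. Leydig markers moved in the same libraries: their summed CPM was 2922 and 3003 on day 42, 7802 and 7519 on day 48, 2881 and 3875 on day 49, and 7997 and 4920 on day 50. Their part in the sterol profile was not tested. Day 49 replicate 1 also had the lowest mitochondrial share of counts, 0.715%, where the knockout median was 2.74%.

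**Figure D3:**
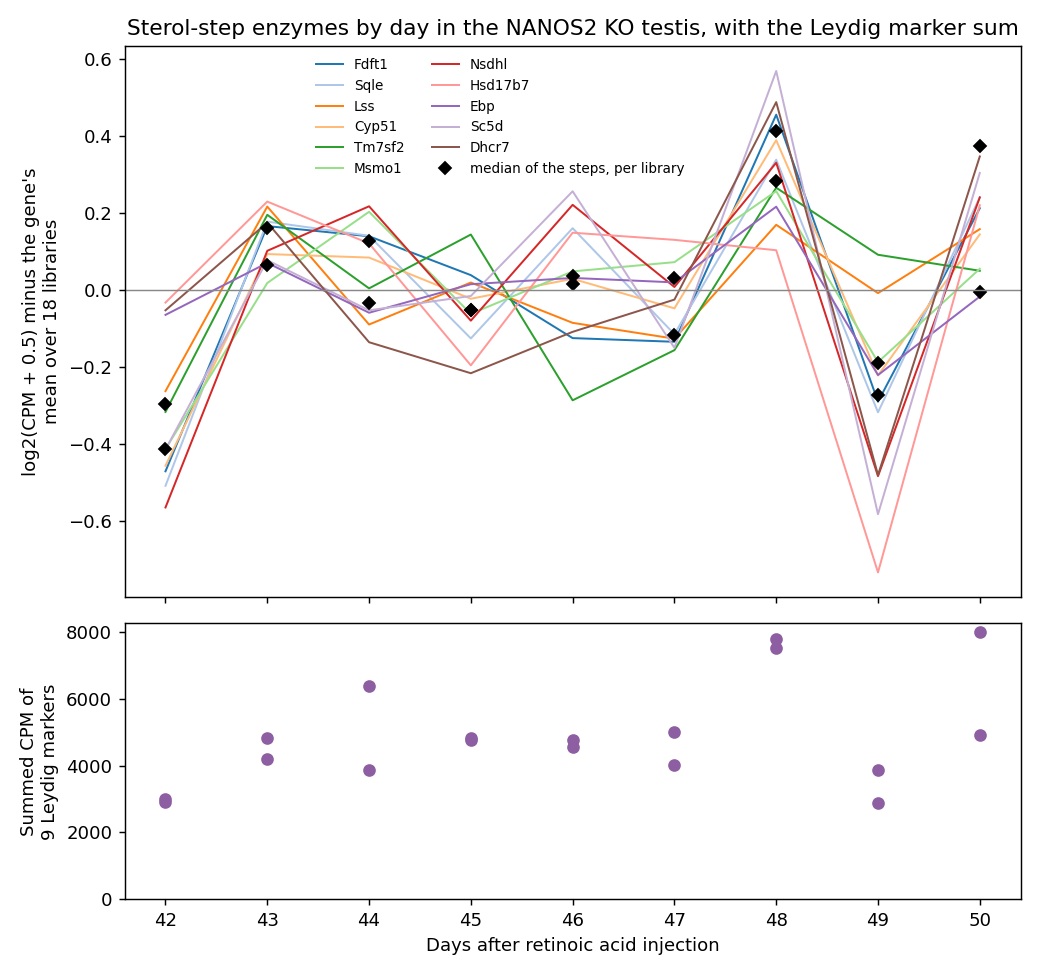
Top: daily mean of log2(CPM + 0.5) for the 11 sterol steps, each minus its mean over 18 NANOS2 KO libraries, with the median of the 11 in each library (diamonds). Bottom: summed CPM of 9 Leydig markers, 1 point per library; both panels are low on day 42 and day 49 and high on day 48 and in 1 library of day 50.

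The call over days varied with the libraries kept and the filter. Leaving out 1 library left 1 in its group. The filter on low counts follows the smallest group, so it was looser in those runs. The part of the library and that of the filter cannot be told apart there. Left out 1 at a time, 13 of the 18 libraries gave 0 members; without day 49 replicate 2 there were 9 members called, without day 50 replicate 2 there were 6, without day 49 replicate 1 there were 3, and without day 44 replicate 2 or day 50 replicate 1 there was 1. The calls among all genes moved too, from 76 to 909, 251, 156, 92 and 104 in the same order of libraries. Without both day 49 libraries there was 1, Nsdhl (edgeR adjusted p = 0.0325), among 114 genes. DESeq2 called 6 members among 217 genes, and edgeR without a filter called 8 among 968; Sqle, Fdft1, Nsdhl, Sc5d, Dhcr7 and Cyp51 were called by both. Along a straight line over days, no member was called (0.857% of all genes were), and 4 had an unadjusted p under 0.05 against 15.0% of all genes. Abca1 was the one with a negative slope, -0.03 ± 0.02 log2 per day. Without both day 49 libraries, a choice made after seeing the data, 1 member, Sc5d, was called on the line (0.09 log2 per day; edgeR adjusted p = 0.0451). A sine and cosine fit over days, at the cycle's 8.6 days, called no member and 0% of all genes with edgeR, with Ggps1 alone under an unadjusted p of 0.05; DESeq2 called no member either.

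Among the sorted stage groups, no member passed either (0 of the 30 tested; Abcg1 was too low), where 8.07% of 14331 genes passed the F test over groups with edgeR. Each group against the mean of the other 4 also gave 0 members: A, where 1.67% of genes passed, B with 0.0419%, C with 2.64%, D with 8.65% and E with 0.523%. At an unadjusted p under 0.05, 3 members stood in the F test (Soat1, Dhcr7 and Nsdhl), against 21.9% of all genes, so the members were below the background. With 2 libraries in a group and a biological coefficient of variation of 0.268, against 0.122 in the knockout, these groups were less precise.

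For Soat1 and Scarb1, for storage and uptake, all libraries of C and D lay below those of A, B and E, without a call. That split was chosen after seeing the values, and the pairs within each side overlapped. Soat1 was at 81.2 and 94.8 CPM in group C and 106 and 71.1 CPM in D, against 189 and 118 in A, 208 and 124 in B, and 158 and 162 CPM in E; no library of C or D reached any of A, B or E. The log2 difference of C from the other groups was -0.65 ± 0.28, with an edgeR adjusted p of 0.277, and that of D was -0.67 ± 0.28 (0.163). Over the 5 groups DESeq2 called Soat1 (adjusted p = 0.0474), edgeR did not (0.148). Scarb1 also had its lower pairs in C and D, at 217 and 347 CPM in C and 353 and 304 CPM in D, against 488 and 464 in A, 420 and 372 in B, and 521 and 456 CPM in E. Here too no library of C or D reached the others, and C differed by -0.57 ± 0.23 (edgeR adjusted p = 0.257). In these 2 genes C and D were the low groups. They were taken from 30 members tested, none of which edgeR called. The share of all genes with such a split was not counted.

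Dhcr7 was lowest in C, at 20.7 and 26.5 CPM, and highest in E, at 51.1 and 55.7 CPM; A was at 47.0 and 40.4, B at 43.1 and 30.8, and D at 38.0 and 37.6 CPM. C differed from the others by -0.85 ± 0.26 (log2, SE; edgeR adjusted p = 0.112, DESeq2 0.0452), and both of its libraries were below all others. How many of all genes had such a pair was not counted. Other members had pairs that lay far apart. Fdps was at 25.7 and 70.6 CPM in D, a spread as wide as any difference between groups (0.76 ± 0.32; edgeR adjusted p = 0.179). Nsdhl was at 39.5 and 12.5 CPM in D and at 11.0 and 6.80 CPM in E. Cyp51 had a group mean of 14.3 CPM in A and 31.1 CPM in D, and neither contrast was called. Hmgcs1 was at 135 and 55.5 CPM and Fdft1 at 99.7 and 211 CPM in the A pair, so the replicates of A went opposite ways in these 2 genes. Cell type markers differed between stage groups as well. The Sertoli sum was 13369 to 14217 CPM in D, 9497 to 10428 CPM in A and 9249 to 14445 CPM in C. The Leydig sum was 318 to 458 CPM in D and 78.4 to 100 CPM in A. Elongating spermatid markers summed to 1572 to 2563 CPM in D and 11074 to 14031 CPM in A, and in C they were at 6716 to 9800 CPM. Earlier germ cells went the other way. Spermatocyte sums were 451 to 620 CPM in D and 159 to 388 CPM in A. Those of 7 round spermatid markers were 148 to 239 and 49.1 to 131 CPM. Macrophage sums were 148 to 160 CPM in D against 348 to 404 CPM in A, and peritubular myoid sums 82.6 to 128 against 236 to 344 CPM. Their part in the stage values was not tested.

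**Figure D4:**
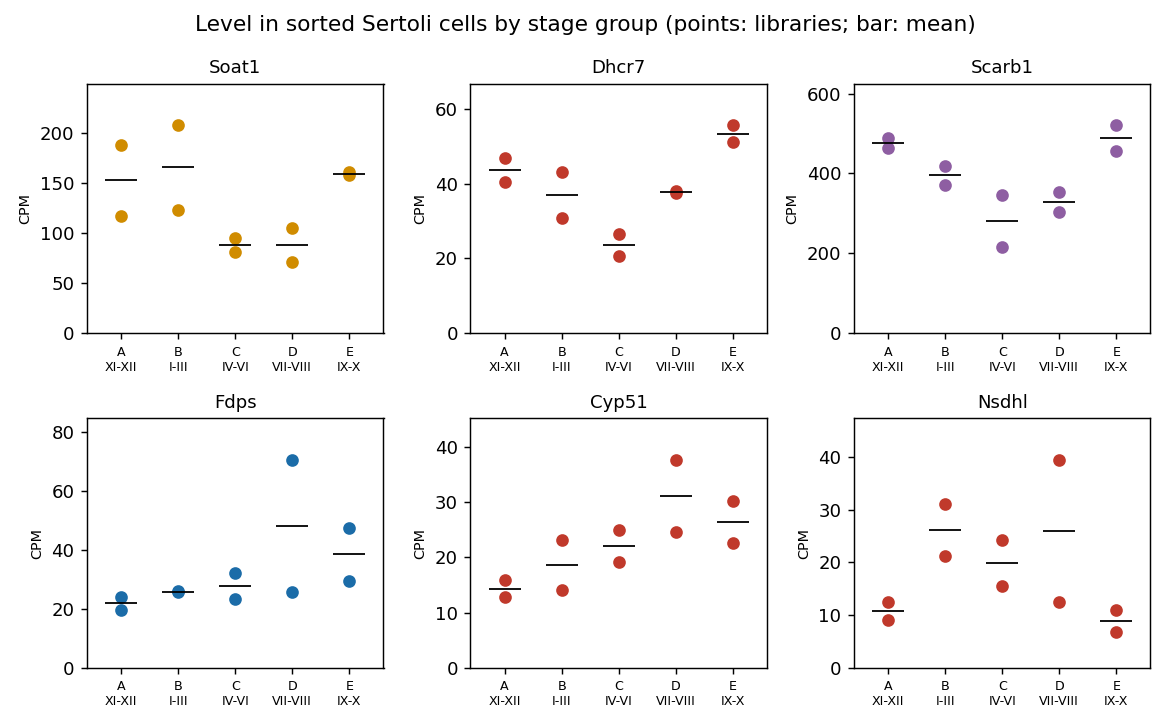
CPM in sorted Sertoli cells for Soat1, Dhcr7, Scarb1, Fdps, Cyp51 and Nsdhl by stage group; points are the 2 libraries and bars their mean. Soat1 and Scarb1 are low in C and D, Dhcr7 is low in C, and the D pairs of Fdps and Nsdhl are far apart.

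A list of 40 further genes of sterol transport, oxysterol and isoprenoid metabolism was read beside the members. Against sorted cells, 30 of the 38 tested were called in the knockout, 18 higher and 12 lower; that is 78.9%, below the 85.1% of all genes. They had a median log2 difference of 0.14 where the members' was 1.56. Cyp27a1, the sterol 27-hydroxylase (6.01 ± 0.13), and Cyp11a1, which starts steroid synthesis and is also one of the Leydig markers (9.48 ± 0.25 log2, SE), had the smallest p among those higher. Rnf139, a ubiquitin ligase of the endoplasmic reticulum (-1.90 ± 0.09), and Fnta, a prenyltransferase subunit (-1.27 ± 0.08), had the smallest among those lower. Over the stage groups, 2 of 34 were called, Stard5, a sterol carrier, and Tspo, a mitochondrial outer membrane protein; that is 5.88%, where 8.07% of all genes passed. Stard5 was lower in A (-1.65 ± 0.31; edgeR adjusted p = 0.0183) and higher in D (1.62 ± 0.24; 0.00150) and C (1.36 ± 0.25; 0.0123), and Tspo was higher in D (1.23 ± 0.25; 0.00760). Over the days, 1 of 36, Cyp11a1, was called (2.78%, with 0.582% of all genes; edgeR adjusted p = 0.00352), and on the line, also 1 of 36 (0.857% of all genes), Stard5 rose over the days (0.08 ± 0.02 log2 per day; 0.0212).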

How the data were processed

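Polyadenylated RNA of 28 libraries was sequenced on an Ion Proton after library preparation with a total RNA kit of the same maker, per the labels' protocols. The submitters' processing notes name Bowtie, TopHat, Cufflinks and mm10; the sources used here give no versions, annotation or strand setting. The count tables deposited by the authors hold raw counts. Values in the other deposited tables, whose names say FPKM, are CPM by the authors, since they match counts scaled to the library total within 0.0005. Knockout samples are labelled as Sertoli but come from whole testis, and the extraction protocol speaks of sorted germ cells. The knockout count table has 2 columns under the same day 42 header, which were told apart by the equal CPM column. Spreadsheet conversion had turned 27 symbols into dates. Some genes of the pathway are not reported here.

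After filterByExpr and TMM scaling, the quasi-likelihood test of edgeR 4.0.16 was run under R 4.3.3, with Benjamini-Hochberg adjustment over all genes tested; the knockout contrast sets the mean of 9 days against the mean of 5 groups. The 15777, 13065 and 14331 genes tested are those of the joint, knockout and sorted fits. Alternatives were DESeq2 1.42.0, limma 3.58.1, RLE scaling, no filter, a replicate block and leaving out each library. Leaving out a library left 1 in its group, so filterByExpr then required 1 library and not 2. Those runs therefore change the filter as well. In simulated counts, the edgeR fits recovered most of the large changes added to well-counted genes. The simulated spread was below that of the sorted libraries, so this says nothing on small stage or day differences. Exon lengths, with all annotated exons of a gene merged, and overlaps came from GENCODE M21 (GRCm38). Promoters came from RefSeq (24 of 31 members had a window). Every member is named; described in full are those called and the 2 highest of each role. For the other 40 pathway genes, up to 2 called genes of smallest p per direction are named. Members and lists were chosen with earlier results of these data known. Replicates within groups differed by more than sampling noise, and none were counted as 1.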

Additional observations from a re-analysis of the deposited data

How the results depend on the processing

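Of the 31 members, 26 differed between the knockout and the sorted cells under RLE scaling, DESeq2, no filter, the replicate block and each library left out (26 to 26), and 29 with limma or with library totals. Of all genes, 13419 were called as reported, 13323 with DESeq2 and 18024 with limma without a filter. With a library left out, 13621 to 13955 were. The scaling moved the median of all genes from -0.17 to 0.21 log2 and the share of called genes that were higher from 44.7% to 56.4%; directions near 0 follow it. With limma on log2(CPM + 1), with or without a filter, Insig2 was at 0.0476, Scarb1 at 0.385 and Npc2 at 0.350; with 0.1 added they were at 0.0483, 0.386 and 0.352, and with library totals at 0.0472, 0.380 and 0.349. Ebp lost its call in those settings (-0.024 to -0.029).

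Over days, members called were 8 without a filter, 6 with DESeq2, 1 without both day 49 libraries, 0 to 9 with each library left out, and 0 with the replicate block; the cause was not tested. The 9 sterol steps at an unadjusted p under 0.05 were 7 to 10 with a library left out. On the line, 1 member was called without day 49. Over stage groups, 2 members were called without a filter and 1 with DESeq2; in group C, 1 with DESeq2. Leaving out any library gave 0 there, on the line and in the cyclic fit.

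Genes called of all tested ranged, over the alternatives beside leaving out libraries, from 500 to 2764 for stage groups (1156 as reported), 68 to 901 for A (240), 0 to 307 for B (6), 90 to 988 for C (379), 848 to 1932 for D (1239), 15 to 651 for E (75), 0 to 968 for days (76), 4 to 309 for the line (112) and 0 to 359 for the cyclic fit (0). The highest came without a filter, or for the line without day 49. Replicate numbers were not treated as pairs, since not every pair's correlation of deviations was over 0.1 (-0.15 to 0.54, median 0.27, in sorted and -0.34 to 0.16 in knockout libraries). In sorted libraries 8 of 10 correlated best with their own number, and in the knockout 8 of 18 did. Deviations were taken within pairs, so both libraries of a group give the same answer and are not separate evidence. The sorted count is a hint from the data that numbers share something. The replicate block gave 1670 genes for stage groups and 64 for days. Groups of 2 libraries limit every test of stage and day, and counts near 3, as for Abcg1 in sorted cells, give no usable fold. The lowest sorted counts of Idi1, Stard4 and Tm7sf2 were 2, 3 and 4, so their folds are less certain.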
